A study of Oryza sativa with 12 samples.

Results

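Transcripts of 7 rice genes that make or inactivate gibberellin were followed through shoots of a parental cultivar and 3 gibberellin-signalling mutants. The genes were CPS1, KS1, KO2, KAO, GA20ox2 and GA20ox3 of synthesis and EUI1 of inactivation. They were taken by symbol or synonym from the array's probe-to-gene table and a rice gene table, and all 7 were found. They are 7 of the 17905 genes that the array's table pairs with a probe set. Together they have 8 of the 57194 probe sets tested, 2 of them for KO2, and the probe set with the highest mean over all arrays stands for a gene. Each line was measured on 3 arrays, which the labels call biological replicates, so that 12 arrays were used. The labels do not say how many plants went into a replicate.

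Taichung 65 (T65) is the parental cultivar and served as the control. The gid1-3 line carries a mutation of GID1, the soluble gibberellin receptor. The gid2-1 line carries a mutation of GID2, the F-box protein that marks the DELLA repressor for breakdown. The slr1 line, with the allele k1001, carries a mutation of SLR1, the DELLA repressor itself, and the labels do not say whether that allele has lost or gained function. All 4 lines share the T65 background, were grown in a greenhouse and were harvested as shoots 5 weeks after germination.

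Gibberellin is built from the plastid diterpene precursor geranylgeranyl diphosphate. CPS1 and KS1 are the cyclases that turn it into ent-kaurene, and the cytochrome P450 enzymes KO2 and KAO oxidize that to the first gibberellin. Soluble oxygenases, GA 20-oxidases followed by GA 3-oxidases, then make the active hormone, while GA 2-oxidases and the P450 enzyme EUI1 inactivate it. In rice and other plants the GA 20-oxidases are known for feedback, in which active signalling lowers their transcripts.

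Signals are scaled linear intensities of a probe set, given for replicates 1, 2 and 3 in that order or as mean ± SD (n = 3 per line). Each probe set binds its target with its own strength, so signals are compared between lines and not between genes. A change is a difference of mean log2 signals with its standard error from limma, and it was called at an adjusted p under 0.05, adjusted by Benjamini and Hochberg over all probe sets tested. The median signal ran from 58.0 to 75.8 over the 12 arrays. Arrays correlated at r = 0.940 to 0.955 within a line and at 0.916 to 0.944 between lines. All 5 measured genes of leaf photosynthesis were above the array's reporter controls on every array, as in leafy shoots, but they also moved between lines. In the order T65, gid1-3, gid2-1, slr1, their summed signal was 79910.2 to 85219, 91837 to 100194, 60614 to 79040.5 and 87320 to 113683. Against T65, PSAG fell in gid2-1 from 4946 to 814 (adjusted p = 1.6e-12) and RCA fell there by 1.52-fold. CAB2R (-0.14), PSAH (-0.07) and RBCS (0.16) were not called in gid2-1 (adjusted p = 0.34, 0.61 and 0.59). In slr1 PSAH rose by 1.88-fold, and the other 4 were not called. In gid1-3 PSAG and RCA were higher (0.43 and 0.35, adjusted p = 0.00028 and 0.0077). None of 3 measured flowering-state genes was called in any comparison, and of these only MADS14 was above the reporter controls on every array. Some markers of other tissues moved as well. In the same order, the summed signal of 5 root markers was 831 to 902, 798 to 854, 1987 to 2149 and 1154 to 1202, largely from the silicon channel LSI1. Against T65, NRT2.3 was also called higher in gid2-1 (adjusted p = 0.019). Its signals in T65 replicates 2 and 3 (40.2 and 4.54) lay under the reporter controls of their arrays. SCR1 (0.02), LSI2 (0.65) and SHR1 (-0.22) were not called in gid2-1 (adjusted p = 0.97, 0.75 and 0.37). In slr1 only LSI1 was called, and in gid1-3 only SHR1, which was lower (-0.61, adjusted p = 0.0059). The summed signal of 5 KNOX genes of meristem and stem was 2094 to 2231, 1032 to 1050.0, 2317 to 2512 and 916 to 1041. OSH1 carried most of the falls, with means of 1214 in T65, 436 in gid1-3 and 369 in slr1. In gid2-1 OSH1 did not follow the sum (-0.14, adjusted p = 0.33). The higher sum there came mostly from OSH71 (523 in T65 and 785 in gid2-1) and OSH6 (230 and 387). OSH43 also went against the sum, being lower in gid2-1 than in T65 (adjusted p = 0.01) and not called in slr1 (-0.07, adjusted p = 0.96). All its gid2-1 signals (15.7 to 37.4) lay under the reporter controls of their arrays. The summed signal of 11 panicle and flower genes was, in the same order, 896 to 1065, 812 to 889, 1257 to 1608 and 782 to 889. MADS16 carried most of the rise in gid2-1 (448 in T65 and 794 in gid2-1). MADS4 (0.60, adjusted p = 0.036) and MADS58 (0.80, adjusted p = 0.018) were also called higher there. In gid1-3 MADS4 (0.74) and MADS58 (0.89) were called higher, but MADS16 (-0.54) and RFL (-1.03) lower (adjusted p = 0.0091, 0.0082, 0.0091 and 0.0024). In slr1 only MADS58 was called, lower (-0.73, adjusted p = 0.039) and near the reporter controls at 50.1 to 51.2. MADS7 was called higher in gid2-1 (adjusted p = 0.015), but MADS6, MADS7 and MADS13 were under the reporter controls on all 12 arrays. The part of these tissues in the results was not tested, and in whole shoots fewer cells of a type cannot be told apart from less RNA per cell. GID1 transcript was 4442 to 4537 in T65, 6238 to 6568 in gid1-3, 5628 to 6457 in gid2-1 and 2456 to 2467 in slr1. GID2 was 9075 to 9374 in T65, 5568 to 5870.1 in gid1-3, 5921 to 7174 in gid2-1 and 8525 to 9408 in slr1. SLR1 was 1235 to 1355 in T65, 820 to 839 in gid1-3, 1103 to 1177 in gid2-1 and 1473 to 1631 in slr1. The labels do not say what the alleles do to these transcripts, and GID1 was higher and GID2 lower than in T65 in both gid lines. GID1 was lower than in T65 in slr1 (-0.87, adjusted p = 3.1e-08). SLR1 was lower in gid1-3 (-0.65, adjusted p = 8.1e-07) and gid2-1 (-0.19, adjusted p = 0.036) and higher in slr1 (0.27, adjusted p = 0.0051).

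CPS1 fell in both gid mutants, while KO2 and KAO rose in all 3 mutants. For KO2 in slr1 only the brighter probe set was called (0.51, adjusted p = 0.0018), not the other (0.37, adjusted p = 0.083). Of the GA 20-oxidases, GA20ox2 rose in gid1-3, and GA20ox3 rose in both gid mutants and fell in slr1. EUI1 fell in gid1-3. The fall of EUI1 in gid2-1 and a small rise of KS1 in slr1 also passed the test, but these calls were lost under 11 and 8 of 21 other settings. Against T65, 4 of the 7 genes were higher and 2 lower in gid1-3, where 29.5% of all probe sets were called. In gid2-1, 3 were higher and 2 lower, where 26.1% were called, and in slr1, 3 were higher and 1 lower, where 19.9% were called. All 7 genes were brighter than the median probe set, and of the probe sets above that median 54.1%, 48.4% and 37.5% were called in the 3 comparisons. The median change of the 7 genes was 0.80 in gid1-3, 0.40 in gid2-1 and 0.12 in slr1 on the log2 scale, beside -0.00, 0.05 and -0.02 for all probe sets tested. These comparisons share the T65 arrays. The F-test over the 4 lines called 7 of the 7 genes and 39.9% of all probe sets.

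**Figure D1:**
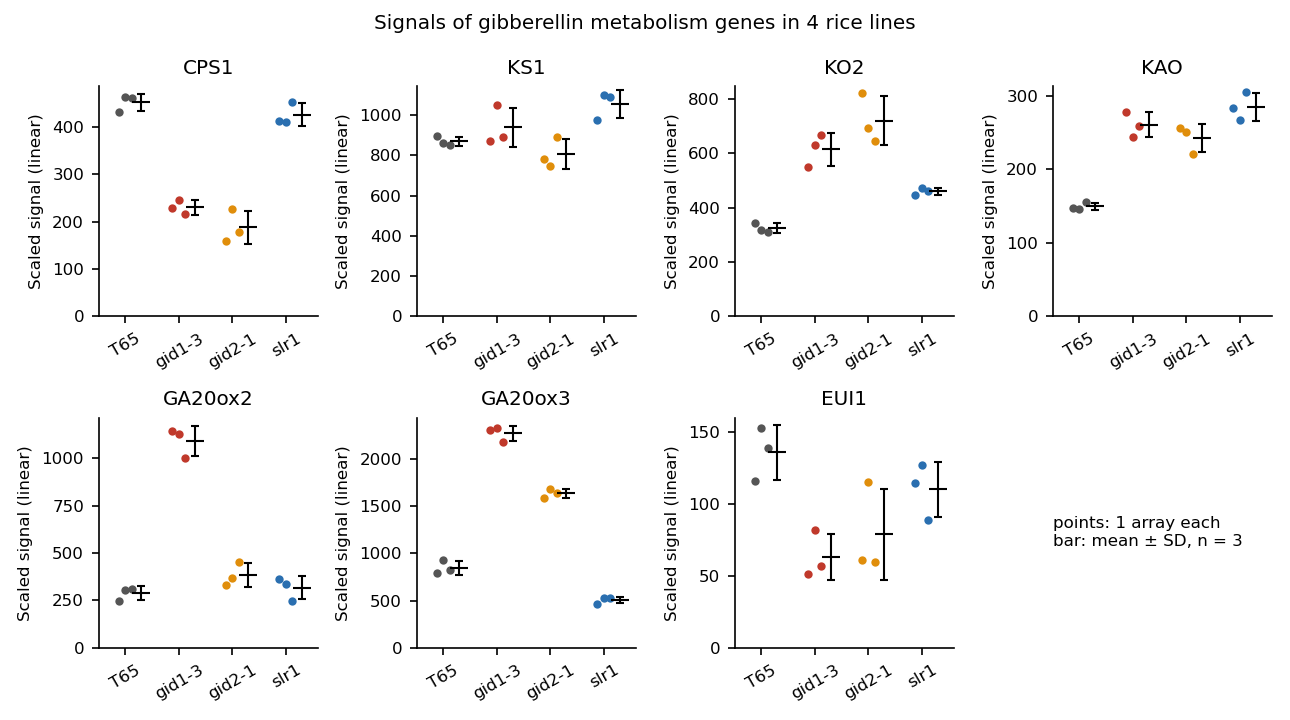
Scaled linear signal (vertical axis, from 0) of each gene in T65, gid1-3, gid2-1 and slr1. Points are single arrays and bars are the mean ± SD of 3 arrays. GA20ox3 separates all 4 lines, with 2269 ± 75.2 in gid1-3 and 508 ± 35.0 in slr1, while KS1 differs little, from 805 ± 74.4 in gid2-1 to 1055 ± 68.5 in slr1.

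CPS1 encodes the ent-copalyl diphosphate synthase that commits precursor to gibberellin. Its signal was 431, 464 and 462 in T65 and 413, 411 and 454 in slr1. It was 229, 247 and 216 in gid1-3 and 159.8, 226 and 178 in gid2-1. Every array of the gid mutants lay below every array of T65 and slr1, with no overlap between these pairs of lines. Relative to T65, CPS1 changed by -0.97 ± 0.12 for gid1-3 (adjusted p = 1.5e-05) and by -1.28 ± 0.12 for gid2-1 (adjusted p = 9.8e-07), falls of 1.96-fold and 2.43-fold. In slr1 the difference from T65 was -0.09, with a 95% interval from -0.35 to 0.18 (adjusted p = 0.74). The slr1 line stood above gid1-3 by 0.88 ± 0.12 (adjusted p = 4.2e-05) and above gid2-1 by 1.19 ± 0.12 (adjusted p = 2.1e-06). The order of the line means was T65 at 452 ± 18.6, slr1 at 426 ± 24.3, gid1-3 at 231 ± 15.3 and gid2-1 at 188 ± 34.1. Only the step between slr1 and gid1-3 in that order was called. Between gid1-3 and gid2-1 the arrays overlapped, and the difference of 0.31 was not called (adjusted p = 0.1), except with quantile normalization (0.42, adjusted p = 0.027) or without gid2-1 replicate 2 (0.45, adjusted p = 0.0096).

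KS1 encodes the ent-kaurene synthase of the second cyclization. Its probe set is of a type that can bind related transcripts, and in the gene order it lies beside KS2 and KSL2, genes of the same family with no probe set paired to them. Its signal was 895, 863 and 851 in T65 and 873, 1051 and 892 in gid1-3. It was 783, 745 and 888 in gid2-1 and 977, 1099 and 1090.4 in slr1. The slr1 arrays were above all arrays of T65 and gid2-1 but overlapped those of gid1-3. Against T65, gid1-3 differed by 0.11 (95% interval -0.08 to 0.29, adjusted p = 0.45) and gid2-1 by -0.11 (-0.30 to 0.07, adjusted p = 0.43). The rise in slr1 was 0.28 ± 0.09 (adjusted p = 0.036), or 1.21-fold, and slr1 exceeded gid2-1 by 0.39 ± 0.09 (adjusted p = 0.0028). The call against T65 was lost under 8 of 21 other settings, namely centring on medians or on spiked controls, a constant prior variance, leaving out T65 replicate 1, 2 or 3 and leaving out slr1 replicate 2 or 3. The change there was 0.20 to 0.30 and the adjusted p 0.064 to 0.26. With spiked-control centring gid2-1 was also called, at -0.31 (adjusted p = 0.046). The line means ran from 805 ± 74.4 in gid2-1 through 869 ± 23.0 in T65 and 939 ± 98.0 in gid1-3 to 1055 ± 68.5 in slr1, and no step between neighbours in that order was called. The step from gid1-3 to slr1 was called with spiked-control centring (0.32, adjusted p = 0.037) and without gid1-3 replicate 2 (0.26, adjusted p = 0.045), and gid1-3 was called above gid2-1 without gid2-1 replicate 3 (0.29, adjusted p = 0.034).

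KO2 encodes the ent-kaurene oxidase of the first P450 step. Both of its probe sets can bind related transcripts, and the gene-table entry carries the name KO1 as well, so the signal may include close relatives. The brighter probe set gave 345, 316 and 311 in T65 and 446, 473 and 462 in slr1. It gave 549, 629 and 667 in gid1-3 and 821, 692 and 647 in gid2-1. All mutant arrays exceeded all T65 arrays, and slr1 lay between T65 and the gid mutants without overlap. Relative to T65, gid2-1 rose by 1.15 ± 0.10 (adjusted p = 3.5e-07), gid1-3 by 0.92 ± 0.10 (adjusted p = 3.1e-06) and slr1 by 0.51 ± 0.10 (adjusted p = 0.0018). These rises were 2.21-fold, 1.89-fold and 1.42-fold. The slr1 line was below gid2-1 by a change of -0.64 ± 0.10 (adjusted p = 0.00015) and below gid1-3 by one of -0.41 ± 0.10 (adjusted p = 0.0051), the latter not called after spiked-control centring (-0.27, adjusted p = 0.15). The gid mutants overlapped each other (-0.23, adjusted p = 0.15).

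The other KO2 probe set gave 232, 223 and 259 in T65 and 345, 434 and 415 in gid1-3. It gave 449, 399 and 355 in gid2-1 and 311, 256 and 361 in slr1. It rose by 0.74 ± 0.14 for gid1-3 (adjusted p = 0.00063) and by 0.75 ± 0.14 for gid2-1 (adjusted p = 0.00065), with no overlap with T65. In slr1 it measured 0.37 ± 0.14, which was not called (adjusted p = 0.083), and its arrays overlapped those of T65 and of both gid mutants. Nor was slr1 called below gid1-3 (-0.37, adjusted p = 0.061) or below gid2-1 (-0.38, adjusted p = 0.056) by this probe set. The probe sets thus had the same direction in each mutant, and the calls that involve slr1 rest on the brighter one.

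KAO encodes ent-kaurenoic acid oxidase, the P450 enzyme that ends the membrane-bound steps. Its signal was 148, 146 and 155 in T65. It was 278, 244 and 259 in gid1-3, 256, 251 and 221 in gid2-1, and 283, 267 and 305 in slr1. The T65 arrays were the lowest, and each mutant array lay above all of them. KAO rose in slr1 by 0.93 ± 0.12 (adjusted p = 2.8e-05), with 0.80 ± 0.12 for gid1-3 (adjusted p = 5.9e-05) and 0.69 ± 0.12 for gid2-1 (adjusted p = 0.00026). Line means were 149.8 ± 4.79 in T65, 243 ± 19.3 in gid2-1, 260.5 ± 17.0 in gid1-3 and 285 ± 19.5 in slr1. No pair of mutants differed by the test, although every slr1 array lay above every gid2-1 array. The change between slr1 and gid2-1 was 0.23 with a 95% interval from -0.02 to 0.48 (adjusted p = 0.18), that between gid1-3 and gid2-1 was 0.10 (-0.15 to 0.35, adjusted p = 0.65), and that between slr1 and gid1-3 was 0.13 (-0.12 to 0.38, adjusted p = 0.5).

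GA20ox2 encodes the GA 20-oxidase known in rice as the semi-dwarf gene SD1. Its signal was 249, 306 and 313 in T65 and 365, 335 and 249 in slr1. It was 330 in replicate 1, 370.1 in replicate 2 and 451 in replicate 3 of gid2-1, and 1143, 1128 and 999.9 in gid1-3. The gid1-3 arrays stood far above all others. The rise in gid1-3 was 1.92 ± 0.15 against T65 (adjusted p = 6.7e-08), or 3.78-fold, and 1.52 ± 0.15 against gid2-1 (adjusted p = 1.8e-06), or 2.86-fold. In gid2-1 the arrays did not overlap those of T65, but the difference of 0.40 (95% interval 0.08 to 0.72) was not called (adjusted p = 0.061). It was called, at 0.40 to 0.51 with adjusted p 0.025 to 0.05, in 4 of 21 other settings: with dim probe sets left out, without gid2-1 replicate 1, and without slr1 replicate 1 or 3. The slr1 line differed from T65 by 0.12 (-0.20 to 0.44, adjusted p = 0.71) and from gid2-1 by -0.29 (-0.60 to 0.03, adjusted p = 0.2), and from gid1-3 by -1.80 ± 0.15 (adjusted p = 1.5e-07).

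GA20ox3 encodes another GA 20-oxidase. Its signal was 792, 932 and 821 in T65 and 468, 527 and 529.7 in slr1. It was 2302, 2322 and 2183 in gid1-3 and 1586, 1682 and 1641 in gid2-1. No line overlapped another, and gid1-3 was the highest, followed by gid2-1, T65 and slr1. Against T65, the fall in slr1 was -0.74 ± 0.07 (adjusted p = 3.1e-06), and the rises were 1.42 ± 0.07 for gid1-3 (adjusted p = 8.7e-10) and 0.95 ± 0.07 for gid2-1 (adjusted p = 9.3e-08). The mutants also differed among themselves. The gid1-3 line exceeded gid2-1 by 0.47 ± 0.07 (adjusted p = 0.00021), or 1.39-fold, and slr1 was 4.47-fold below gid1-3 (adjusted p = 1.1e-11) and 3.23-fold below gid2-1 (adjusted p = 1.5e-10). GA20ox3 was thus called in 6 of 6 comparisons and kept all 6 calls under the 21 other settings. The brighter KO2 probe set was called in 5 and CPS1 in 4. KAO and GA20ox2 were each called in 3, and KS1 and EUI1 each in 2.

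EUI1 encodes the cytochrome P450 CYP714D1, which inactivates gibberellins by epoxidation and is known in rice from the elongated uppermost internode of its mutants. Its signal was 116, 153 and 139 in T65 and 115, 127 and 89.0 in slr1. It was 51.3, 81.7 and 56.8 in gid1-3 and 61.4, 115 and 59.9 in gid2-1. This was the gene nearest to background. Over the reporter-control level of its own array it was 3.20 to 3.92 times as bright in T65, 1.73 to 3.97 times in slr1, 1.38 to 1.57 times in gid1-3 and 1.18 to 2.80 times in gid2-1. In gid1-3 all arrays lay below those of T65, and the fall was -1.12 ± 0.29 (adjusted p = 0.0083), or 2.18-fold. In gid2-1 replicate 2 was close to the lowest T65 array, and the fall of -0.85 ± 0.29 only just passed (adjusted p = 0.047). That call was lost under 11 of 21 other settings, at -0.96 to -0.68 and adjusted p 0.054 to 0.16. These were a fit with a constant prior variance, one with only the lines compared, a pseudocount of 16, and leaving out any T65 replicate, gid1-3 replicate 3, gid2-1 replicate 1 or 3, or slr1 replicate 1 or 2. In slr1 the difference from T65 was -0.31 (95% interval -0.94 to 0.32, adjusted p = 0.59). The slr1 arrays lay above those of gid1-3 without overlap, but the difference of 0.81 ± 0.29 missed the threshold (adjusted p = 0.052) and passed it under 7 other settings, at 0.81 to 1.01 (adjusted p 0.022 to 0.049). Those settings were spiked-control centring, dim probe sets left out, the replicate number as a block, and leaving out gid1-3 replicate 2, gid2-1 replicate 2 or 3, or slr1 replicate 3. Without gid2-1 replicate 2, slr1 was also called above gid2-1, at 0.85 (adjusted p = 0.041).

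**Figure D2:**
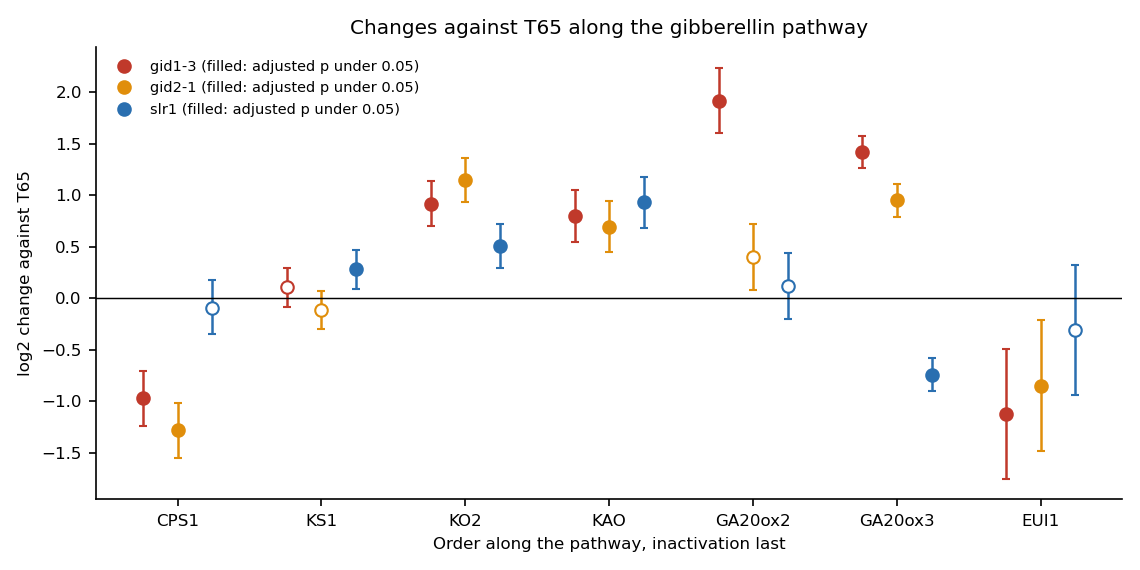
Change against T65 on the log2 scale (vertical axis) for the 7 genes in the order of the pathway, with inactivation last. Points are estimates from 3 arrays per line, bars are 95% intervals, and filled points were called. The gid mutants have the same sign at CPS1, KO2, KAO, GA20ox2, GA20ox3 and EUI1. At GA20ox2 only gid1-3 was called, and the EUI1 call in gid2-1 was lost under 11 of 21 other settings. The slr1 line is opposite to the gid mutants at GA20ox3 (-0.74 against 1.42 in gid1-3).

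The mutants were also set against each other. Between gid1-3 and gid2-1, 2 of 7 genes were called, GA20ox2 and GA20ox3, both higher in gid1-3, where 21.1% of all probe sets and 39.0% of those above the median were called. Between slr1 and gid1-3, CPS1 was higher and KO2, GA20ox2 and GA20ox3 were lower in slr1, so 4 of 7 were called, where 29.0% of all probe sets and 53.0% of those above the median were. Between slr1 and gid2-1, CPS1 and KS1 were higher and KO2 and GA20ox3 lower, again 4 of 7, where 27.3% and 50.3% were. Median changes of the 7 genes were 0.22, 0.13 and 0.23 in these comparisons, beside -0.05, -0.01 and -0.05 for all probe sets tested. KAO was the only one of the 7 that was called in each mutant against T65 and in no comparison between mutants. The calls of KO2 between slr1 and the gid mutants rest on its brighter probe set.

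These values rest on a scaling that gave every array the same trimmed mean. Centring on the spiked controls moved the median of all probe sets by -0.23 in gid1-3, -0.19 in gid2-1 and -0.08 in slr1 against T65, by 0.15 in slr1 against gid1-3 and by 0.12 in slr1 against gid2-1. Among called probe sets the share that was higher went from 47.8 to 28.2% in gid1-3, from 52.5 to 32.9% in gid2-1 and from 45.7 to 35.4% in slr1, and from 48.6 to 63.5% and from 44.5 to 57.1% in the comparisons of slr1 with gid1-3 and gid2-1. Between gid1-3 and gid2-1, centring on medians moved the median by 0.12 and that share from 43.0 to 55.4%. Of 882 changes of the 7 genes over the 6 comparisons and 21 other settings, 0 reversed a called direction.

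Upstream of CPS1, the plastid methylerythritol phosphate pathway supplies the precursor, and 5 of its listed genes were measured. In gid1-3, 4 were higher and 1 lower than in T65. In gid2-1, 1 was higher and 3 were lower, and in slr1, 3 were higher and none lower. The shares called in these 3 comparisons were 29.5%, 26.1% and 19.9% of all probe sets and 54.1%, 48.4% and 37.5% of those above median brightness. DXR, the reductoisomerase that commits carbon to the pathway, was 4771, 4717 and 4946 in T65 and 4419.8, 4540.4 and 4548 in slr1. It was 2752, 2784 and 3025 in gid1-3 and 2398, 2622 and 2270.5 in gid2-1. DXR thus fell in both gid mutants, by -0.75 ± 0.06 (adjusted p = 1.2e-07) and -0.99 ± 0.06 (adjusted p = 7.4e-09), and measured -0.10 in slr1 (adjusted p = 0.37). ISPE, the kinase of a middle step, rose in gid1-3 by 1.00 ± 0.13, in gid2-1 by 0.75 ± 0.13 and in slr1 by 0.51 ± 0.13 (adjusted p = 1.6e-05, 0.00032 and 0.0091). The last enzymes of the pathway differed between the gid mutants. ISPG was higher in gid1-3 (0.19, adjusted p = 0.0048) and lower in gid2-1 (-0.67, adjusted p = 3e-08), and ISPH likewise (0.31, adjusted p = 0.00038, and -0.74, adjusted p = 6.3e-08).

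Other gibberellin genes could be followed only in part. Of 13 further synthesis genes listed, 8 were not in the tables under their names and 3 had no probe set paired with them, and of 11 further inactivation genes none was matched by name, so GA 3-oxidases and GA 2-oxidases were not analysed here. KO4 and KO5, relatives of KO2 that lie beside it in the gene order, were measured. KO4, an ent-kaurene oxidase relative known in rice for a part in phytoalexin synthesis, was 1279.9, 1312 and 1266 in T65 and 1721, 1673 and 1636 in gid1-3. It was 829.6, 701 and 772 in gid2-1 and 283, 276 and 293 in slr1. No line overlapped another, and the change was 0.38 ± 0.07 in gid1-3, -0.75 ± 0.07 in gid2-1 and -2.18 ± 0.07 in slr1 (adjusted p = 0.00052, 7.3e-07 and 2.1e-11). KO4 was thus below T65 in gid2-1 and slr1, where KO2 was above it. KO5 was 118, 132 and 144 in gid2-1 and 78.5, 68.2 and 75.6 in gid1-3. In T65 (27.0 to 36.8) and slr1 (3.07 to 11.9) it lay under the reporter-control level on every array, so no fold is given. KO5 was called higher in gid2-1 than in T65 (adjusted p = 0.0037), and gid1-3 was not called (adjusted p = 0.062).

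The branch that takes the same precursor to phytoalexins had 6 measured genes. In gid1-3, 4 were higher and 1 lower than in T65, in gid2-1 5 were higher, and in slr1 3 were lower, beside the same shares of 29.5%, 26.1% and 19.9% of all probe sets and 54.1%, 48.4% and 37.5% of the brighter ones. The gene called lower in gid1-3 was KSL5, which lay under the reporter-control level on every gid1-3 array. KSL10, a kaurene synthase relative of that branch, changed by 2.78 ± 0.18, 0.94 ± 0.18 and -0.92 ± 0.18 in gid1-3, gid2-1 and slr1 (adjusted p = 7.4e-09, 0.00071 and 0.0013). CPS4 (-0.65), KSL4 (-0.01) and KSL5 (0.40) were not called in slr1 (adjusted p = 0.055, 0.99 and 0.66). Of 7 measured genes of gibberellin signalling, 3 were higher and 3 lower in gid1-3, 3 higher and 2 lower in gid2-1, and 1 higher and 1 lower in slr1, so that 2 of 7 in slr1 lay between its shares of all probe sets (19.9%) and of the brighter ones (37.5%).

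Regulators reported to act on gibberellin metabolism were listed as well, and 8 were measured. Of these, 5 were higher and 2 lower in gid1-3, 6 higher and 1 lower in gid2-1, and 2 higher and 1 lower in slr1. The shares of all probe sets called were 29.5%, 26.1% and 19.9%, and those of the brighter ones 54.1%, 48.4% and 37.5%, so that 3 of 8 in slr1 was no more than its brighter background. GDD1, a kinesin-like protein reported in rice to bind the KO2 promoter, was 2637, 2685 and 2700.2 in T65 and 1177, 1139.8 and 1080.0 in gid1-3. It was 1784, 1987 and 1693 in gid2-1 and 2730.4, 2810.0 and 2949 in slr1. GDD1 was thus lower than T65 in both gid mutants, by -1.24 ± 0.07 (adjusted p = 9.2e-10) and -0.56 ± 0.07 (adjusted p = 7.6e-06), and measured 0.08 in slr1 (adjusted p = 0.5). OSH1, a KNOX homeobox gene of the shoot meristem and a marker of meristem and stem above, fell in gid1-3 by -1.48 ± 0.09 and in slr1 by -1.72 ± 0.09 (adjusted p = 4.4e-09 and 2.8e-09), and measured -0.14 in gid2-1 (adjusted p = 0.33). The photoreceptor genes PHYB and PHYC rose in gid2-1, by 0.89 ± 0.05 (adjusted p = 2.8e-09) and 0.65 ± 0.06 (adjusted p = 7.5e-07). PHYB also rose in gid1-3 (0.49, adjusted p = 1.8e-06) and slr1 (0.43, adjusted p = 1.7e-05), and PHYC measured -0.00 (adjusted p = 1) and 0.14 (adjusted p = 0.14) there. HOX12, a homeobox gene reported in rice to activate EUI1, was picked out after its values were seen. It was 130.1, 126 and 125 in T65, 431, 376 and 351 in gid1-3, 272, 272 and 301 in gid2-1, and 266, 214 and 179.95 in slr1. HOX12 rose in all 3 mutants, by 1.60 ± 0.14, 1.15 ± 0.14 and 0.77 ± 0.14 (adjusted p = 3.3e-07, 1.4e-05 and 0.00094).

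**Figure D3:**
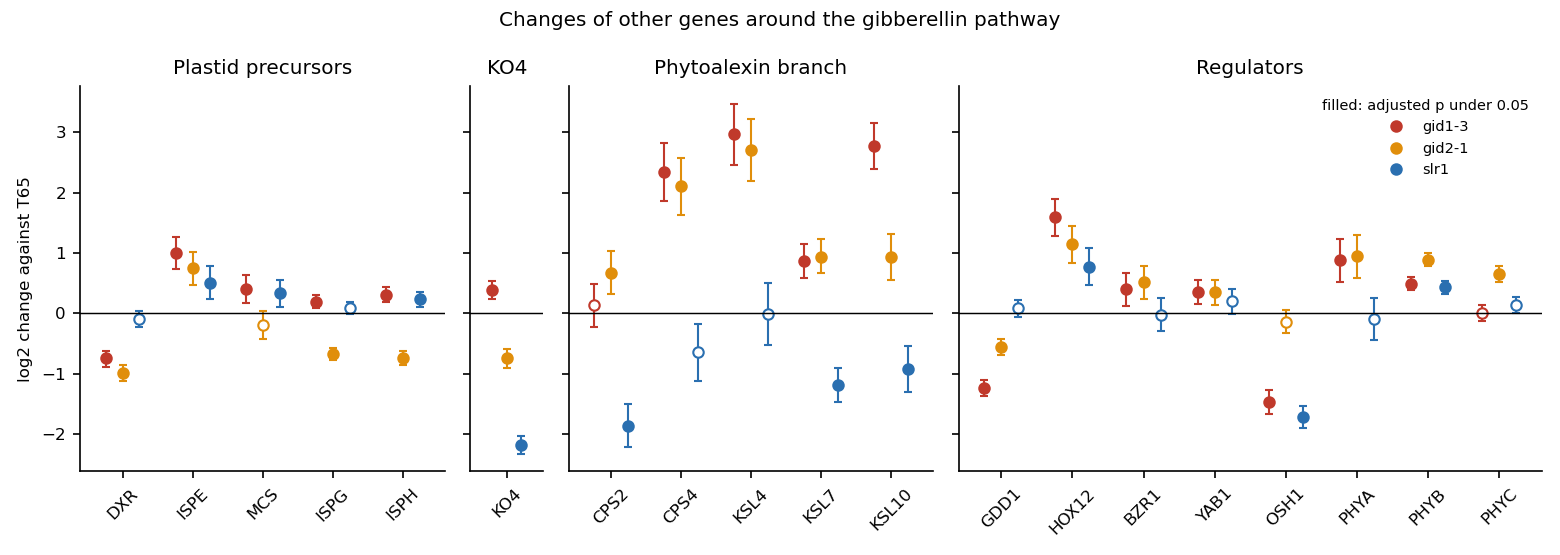
Change against T65 on the log2 scale (vertical axis, shared) for genes of the plastid precursor pathway, KO4, the phytoalexin branch and listed regulators. Points are estimates from 3 arrays per line, bars are 95% intervals and filled points were called. KO5 and KSL5 are not drawn, since some of their arrays lay under the reporter-control level. KO4 runs from 0.38 in gid1-3 to -2.18 in slr1, and DXR is below 0 in both gid mutants.

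The genes with the most similar profiles were taken from 2210 named genes of at least median brightness, by Pearson correlation of log2 signal over the 12 arrays. The arrays fall into 4 lines, so these values mainly compare line means, and they are given as a description. For CPS1 the closest were DXR (r = 0.981), APR-like1 (0.981) and the calcium-sensor kinase CIPK5 (0.980). CIPK5 had a mean signal of 993 ± 18.7 for T65, 1068 ± 19.2 for slr1 and 118 ± 18.3 for gid1-3, and its 41.4 ± 30.9 for gid2-1 was under the highest reporter-control level of that line, 52.1. For KO2 the closest were ABA8OX1, an abscisic acid hydroxylase (0.982), the catalase CAT-A (0.980) and the COBRA-like gene BC1L9 (0.972). For KAO they were the glutaredoxins GRXC10 (0.974) and GRXC15 (0.970) and ASL1 (0.966). GRXC10 and GRXC15 had the same order of line means as KAO, for which no step between mutants was called. GRXC15 ran from slr1 at 2910.0 ± 209.8 through gid1-3 at 2112 ± 21.3 and gid2-1 at 1564 ± 33.0 down to T65 at 455 ± 35.3. ASL1 was instead highest in gid1-3 (5139 ± 109), close to slr1 (5078 ± 341).

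For GA20ox2 the closest profiles were those of OC-X (0.975), DAPB1 (0.972) and the glutaredoxin GRXS4 (0.969). For GA20ox3 they were MS, malate synthase (0.992), the momilactone P450 gene CYP99A3 (0.991) and the homeobox gene Hox13 (0.988). The signal of MS ran from 7628 ± 85.6 for gid1-3 through 3462 ± 193 for gid2-1 and 1283 ± 14.4 for T65 to 595 ± 42.5 for slr1. KS1 and EUI1 had no profile as close. For KS1 the highest were the sugar transporter gene Os8N3 (0.860), the MIF1 gene (0.857) and the ascorbate-recycling enzyme gene MDAR2 (0.851), and for EUI1 they were OsPAA1 (0.924), OSEYA1 (0.906) and the bZIP gene RF2a (0.903).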

How the data were processed

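Total RNA was column-extracted and made into biotinylated cRNA, per the labels' protocols, and hybridized to an Affymetrix rice array. The deposited values are linear probe-set intensities, and the software behind them is not given in the sources used here. Their mean after trimming 2% at each end was 500.1 on every array, which a single scaling factor per array would give. Of 57381 probe sets, 187 controls were left out. The 6377 signals under 1 were raised to 1 before log2 was taken. A linear model with a mean for each line was fitted over the 12 arrays (limma 3.58.1, R 4.3.3), and eBayes shrank the variances towards a trend on mean signal. Intervals are 95% with 14.2 degrees of freedom.

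The reporter-control level of an array is the 95th percentile of its reporter probe sets, 28.3 to 52.2. The files hold no detection calls. Precision rests on 3 arrays per line. Among brighter probe sets the median coefficient of variation was lowest for T65 (6.23%), followed by gid1-3 (7.64%), slr1 (8.86%) and gid2-1 (10.2%). The array's table named 1 gene for 22436 probe sets and several for 95, which gave 17905 genes, 2457 with a usable name. No coordinates are given, since the build is not named.

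The genes and lists were chosen with earlier results of these data known. Named were all 7 genes, up to 4 genes per list by the smallest F-test p, and the 3 most similar profiles per gene. HOX12 and the tissue markers named one by one were picked outside that rule, after their values were seen. Replicate numbers were not used to pair arrays across lines: after subtraction of line means, same-number arrays correlated at -0.28 to 0.21 (4 of 18 pairs over 0.1) and others at -0.28 to 0.27 (4 of 36).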

Additional observations from a re-analysis of the deposited data

How the results depend on the processing

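Alternatives were quantile normalization, centring on medians or on spiked controls, dim probe sets left out, a constant prior variance, only the lines compared, a replicate block, a pseudocount of 16, the mean over a gene's probe sets, leaving out each array, and a threshold of 2-fold. Without that threshold, 844 of 882 changes of the 7 genes kept their side of the threshold and any called direction, 20 lost a call and 18 gained one, and the numbers of genes called stayed within 1.5 times. Requiring 2-fold left 3 genes of 6 called in gid1-3 against T65, 2 of 5 in gid2-1, 0 of 4 in slr1, 1 of 2 in gid1-3 against gid2-1, 2 of 4 in slr1 against gid1-3 and 2 of 4 in slr1 against gid2-1. The replicate block, whose numbers do not pair the samples, called 6, 5 and 4 genes against T65, then 2, 5 and 4 between mutants, and EUI1 in slr1 against gid1-3 was the gain (adjusted p = 0.024). Precision is limited by 3 arrays per line and, for EUI1, by a signal near the reporter controls.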
